A study of Mus musculus with 9 samples.

Results

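S100 proteins are small calcium-binding proteins with a pair of EF-hand motifs, and their genes were followed here in 9 RNA sequencing libraries of mouse cortical cells. The set was 10 genes named by symbol, S100a1, S100a4, S100a6, S100a8, S100a9, S100a10, S100a11, S100a13, S100a16 and S100b, of 56748 genes in the count table. All 10 had enough counts to be tested. The choice used no measured value of these libraries, but it was made with earlier results of the same data known.

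Each of 3 groups held 3 libraries of polyadenylated RNA from wild-type C57BL/6J mice aged 2 to 3 months. Uninjured cortex and injured cortex were cells taken straight from tissue, from which a cytometric sort removed dead cells, debris and neurons that carry CD171 but not ACSA-2. Injury was a grid of lancet stabs, and the lesion core was taken. For the reactive cultures, lesion cores were dissected and grown in DMEM/F12 with B27 and 10% fetal bovine serum and were collected whole and unsorted, so they passed through no gate against neurons. The sample labels place collection 1 day after injury and the culture period at 6 days. The series' design text gives 3 days after injury for injured cortex, and for the cultures a dissection 24 h after injury and then 8 days in vitro. These times could not be reconciled, and sorting, serum and time in culture cannot be told apart in any comparison with the cultures. The series calls the libraries biological replicates, but the number of animals behind each is not given in the sources used here.

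As background, most S100 proteins pair with a copy of themselves or with a sister protein, change shape when calcium rises and then bind a partner inside the cell. S100A8 and S100A9 join as calprotectin, are stored in quantity by neutrophils and monocytes, and act outside the cell as alarm signals read by TLR4 and by RAGE, the product of Ager. S100A10 binds annexin A2 and S100A11 binds annexin A1, whereas S100A6 binds the protein encoded by Cacybp and S100A4 binds the non-muscle myosin heavy chain encoded by Myh9. In the brain S100B is known as a protein of astrocytes and of part of the oligodendrocyte lineage.

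Of the 18 S100 genes in the RefSeq table of GRCm38.p6, 15 lie on chromosome 3, among them 9 of the 10 studied, and S100b lies on chromosome 10. Along chromosome 3 the studied genes come in the order S100a1, S100a13, S100a16, S100a4, S100a6, S100a8, S100a9, S100a11 and S100a10. Upstream sequence was available for 9 of the 10, all but S100a10. The bases before the start sites of S100a8, S100a9 and S100a11 are shown because these genes gave the contrasts described below: a neighbouring pair that parted in culture, and the studied gene with the largest rise after injury. Sequences are from RefSeq, build GRCm38.p6, written 5′ to 3′ on the gene's strand. Capitals mark matches to a PU.1 pattern in S100a8 (chr3:90668821-90668977, plus strand), a C/EBP pattern in S100a9 (chr3:90695722-90695971, minus strand) and an AP-1 pattern in S100a11 (chr3:93520246-93520495, plus strand).
S100a8: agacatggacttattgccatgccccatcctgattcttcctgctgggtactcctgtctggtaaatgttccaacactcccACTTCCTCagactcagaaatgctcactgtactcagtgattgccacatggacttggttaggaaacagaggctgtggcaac
S100a9: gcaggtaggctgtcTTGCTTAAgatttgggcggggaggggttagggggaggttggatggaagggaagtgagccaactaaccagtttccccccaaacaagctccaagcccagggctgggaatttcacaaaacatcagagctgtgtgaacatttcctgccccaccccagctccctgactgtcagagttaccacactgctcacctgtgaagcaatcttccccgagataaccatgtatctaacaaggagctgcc
S100a11: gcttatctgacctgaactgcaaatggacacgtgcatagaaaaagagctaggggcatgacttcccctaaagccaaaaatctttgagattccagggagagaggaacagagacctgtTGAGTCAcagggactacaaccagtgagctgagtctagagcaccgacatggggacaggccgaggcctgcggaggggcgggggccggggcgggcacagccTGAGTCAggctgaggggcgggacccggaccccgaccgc

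The PU.1 pattern, GAGGAAGT, was found in S100a8 on the opposite strand, 172 bases before the start, and in 2.44% of the 32851 windows of 250 bases in the table. S100a8 also held TATAAA, the TATA box pattern, 30 bases before its RefSeq start and outside the stretch shown. That stretch is the first 157 of the 250 bases and ends where S100a8 begins in the GENCODE M21 annotation. Distances are counted from the RefSeq start, so this TATAAA lies inside the gene as GENCODE M21 places it. TATAAA was found in 12.4% of all windows, and among the studied genes also in S100a4, 31 bases before the start. S100a9 held TTGCNNAA, the C/EBP pattern, 236 bases before its start, as did 9.56% of windows. S100a11 held TGANTCA, the AP-1 pattern, at 136 and at 38 bases before its start. This pattern was in 6.75% of windows, and the second start site of S100a16 held it at 192 bases. No match to these patterns, or to TTCNNNGAA for STAT (7.02% of windows) or GGAATG for TEAD (12.6%), was found in the windows of S100a1, S100a6, S100a13, S100b or the first start of S100a16. Both strands were searched. The matches describe letters in these windows, and none was tested for binding.

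Libraries held 12205049 to 24302770 counts, and levels are given as CPM, the count of a gene scaled to library size with TMM factors (the trimmed mean of M values). Gene lengths of the authors' annotation were not used here, so levels are compared between libraries and not between genes. Pearson's r of log2 CPM across genes was 0.939 to 0.984 between libraries of a group. Uninjured replicates 2 and 3 stood apart by RNA of 1474 olfactory and vomeronasal receptor genes, at summed levels of 139 and 103 CPM against 16.8 to 38.8 CPM in the other 7 libraries. Values without these libraries are given where they change a call. The cell type labels were checked on marker lists of 10 genes each: summed astrocyte markers ran from 4073 to 7206 CPM in uninjured cortex, from 2315 to 4059 CPM in injured cortex and from 106 to 165 CPM in the cultures. Microglial markers summed to 10159 to 16544 CPM, 6427 to 18808 CPM and 1421 to 2220 CPM in the same order. In these bulk libraries, fewer cells of a type and less RNA per cell cannot be told apart. All comparisons come from 1 edgeR quasi-likelihood fit over 18093 genes with Benjamini-Hochberg adjustment, a gene is said to rise or fall at an adjusted p under 0.05, and the 3 comparisons share libraries.

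After injury 5 of the 10 S100 genes rose and none fell: S100a8, S100a9, S100a6, S100a10 and S100a11. Among all tested genes 8.99% rose and 2.87% fell. The median log2 fold change of the 10 was 2.04, against 0.0012 over all tested genes. In culture compared with injured cortex, S100a6, S100a10 and S100a11 were higher still, and S100a8, S100a9, S100a13, S100a16 and S100b fell. That is 3 of 10 higher against 20.0% of all genes, and 5 of 10 lower against 30.1% (50.1% in either direction), with a median of -0.20 against -0.19. In culture compared with uninjured cortex 4 were higher (27.5% of all genes) and 3 lower (33.1%), so the total of 7 of 10 was near the 60.5% of all genes called. The medians were 0.12 for the 10 genes and -0.17 for all. Counted by libraries that did not overlap, 6 of the 10 were higher after injury (16.1% of all genes), S100a4 being the gene added, and none lower (12.5% of all genes). By the same count 3 were higher in culture than in injured cortex (25.8% of all genes) and 5 lower (33.8%), and 4 were higher (32.1%) and 3 lower (37.1%) in culture than in uninjured cortex. The 10 genes together made up 975 to 1024 CPM in uninjured cortex, 1359 to 1910 CPM in injured cortex and 2195 to 2463 CPM in the cultures.

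**Figure D1:**
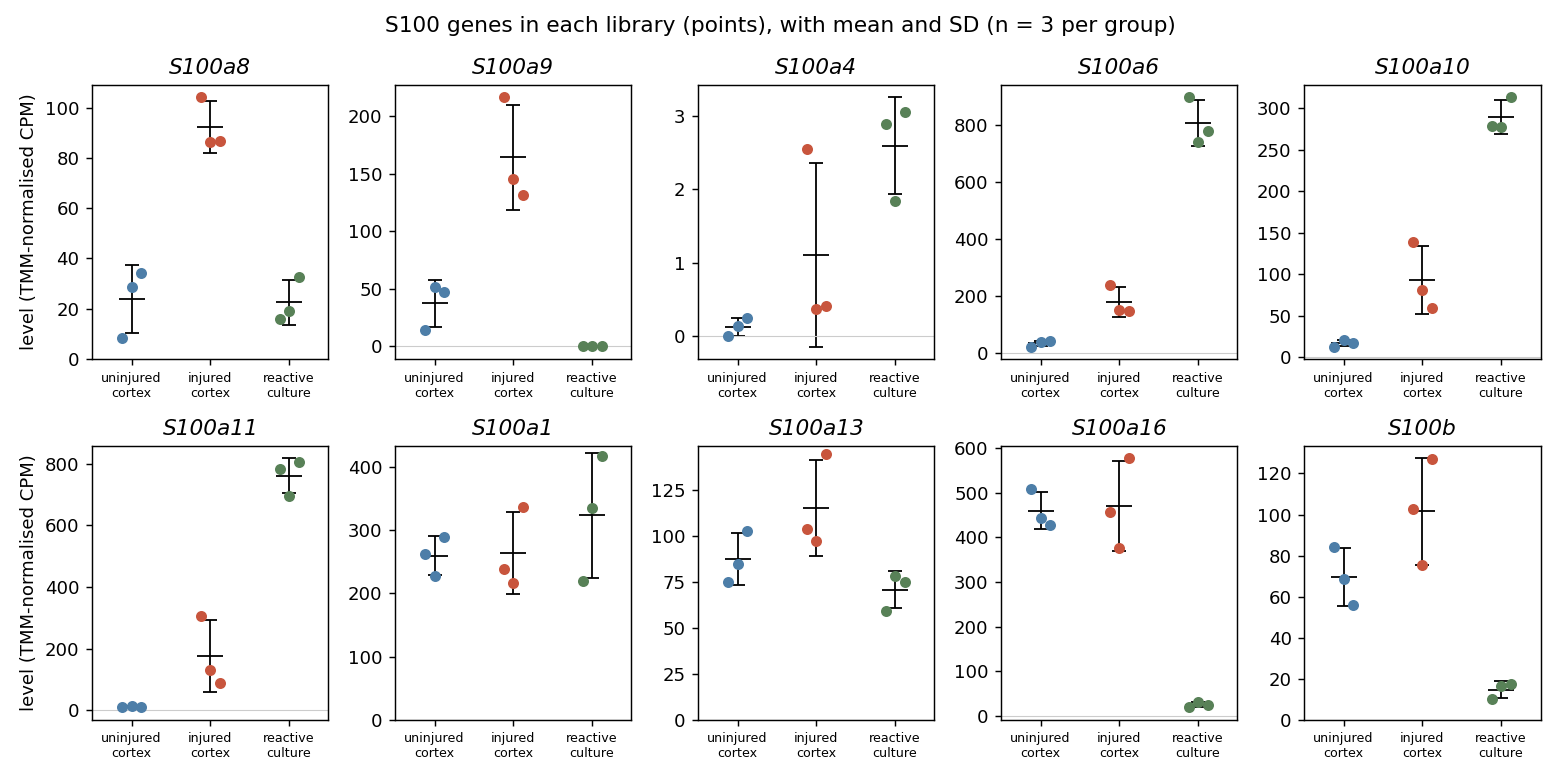
Level of each S100 gene in TMM-normalised CPM (y axis, a different range for each gene) in the 3 groups. Points are libraries, and bars give the mean and SD (n = 3). S100a8 and S100a9 peak in injured cortex, S100a6, S100a10 and S100a11 climb from uninjured cortex to the cultures, and S100a16 and S100b are lowest in the cultures.

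**Figure D2:**
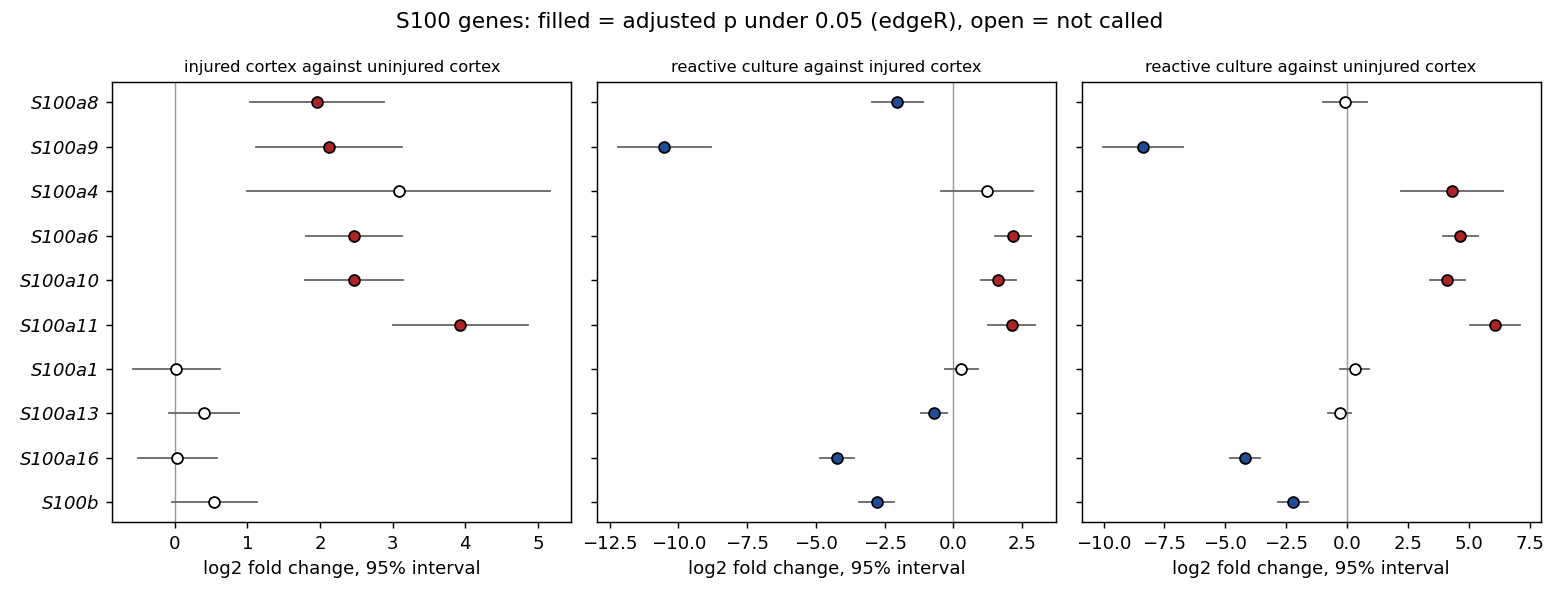
Log2 fold change of each S100 gene with its 95% interval in the 3 comparisons. Each panel has its own x range, filled points passed an adjusted p of 0.05 and open points did not. In the left panel 5 points are filled, all to the right of 0, while the other panels have filled points on both sides.

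S100a8 and S100a9, the calprotectin pair, rose together after injury and parted in culture. S100a8 (ENSMUSG00000056054) stood at 8.45, 28.6 and 34.2 CPM in uninjured replicates 1 to 3, at 104, 86.2 and 86.7 CPM in injured replicates 1 to 3, and at 15.9, 19.1 and 32.6 CPM in the cultures. Every injured library lay above all others, and the uninjured and culture ranges overlapped. The rise after injury was 1.96 ± 0.42 on the log2 scale (SE, edgeR adjusted p = 0.0103), or 3.89-fold, and the level in culture fell by 2.04 from that of injured cortex (SE 0.42, adjusted p = 1.94e-03). Culture and uninjured cortex did not differ by the test (log2 fold change -0.08, 95% interval -0.97 to 0.82, adjusted p = 0.882). With 1 library left out this difference stayed uncalled, at -0.46 to 0.26 (adjusted p of 0.187 or more). Without both uninjured replicates 2 and 3 it was 1.40 (adjusted p = 0.0258), but the uninjured group is then replicate 1 alone, which is assumed to vary like the libraries of the other groups. Under the same assumption the rise after injury was 3.43.

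S100a9 (ENSMUSG00000056071) stood at 14.3, 51.3 and 47.7 CPM in uninjured cortex and at 217, 146 and 131 CPM in injured cortex. In the cultures it had 0, 5 and 0 counts, and a count of 0 allows up to 3 counts, or 0.184 CPM in replicate 1 and 0.235 CPM in replicate 3 for counting error alone. No group overlapped another. It rose by 2.12 ± 0.46 after injury (SE, edgeR adjusted p = 0.0111), a call that was lost without injured replicate 1 (1.85, adjusted p = 0.0512). The fitted fall in culture was -10.51 ± 0.78 against injured cortex (adjusted p = 7.59e-07) and -8.38 ± 0.76 against uninjured cortex (adjusted p = 2.33e-06). With 5 counts in all 3 cultures these sizes depend on the few counts seen: with 1 library left out they were -14.65 to -9.92 and -12.53 to -7.78, lowest without culture replicate 2 and highest without culture replicate 1. With replicate 1 as the only uninjured library the values were 3.51 for the rise after injury and -6.99 for culture against uninjured cortex. From the lowest value, the fall against injured cortex ranked 12 among the 18093 tested genes.

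The balance within the pair shows the same split in counts. For every 100 counts of S100a8 there were 169, 180 and 140 counts of S100a9 in uninjured cortex and 208, 169 and 151 in injured cortex. The cultures had 0, 1.51 and 0 counts of S100a9 per 100 of S100a8, at 259, 332 and 417 counts of S100a8. Thus S100a8 remained well counted in the libraries where S100a9 was at or near 0. The Pearson r of the pair over the 9 libraries was 0.60 on the log2 CPM scale.

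Monocyte markers, and some neutrophil markers, rose with the pair after injury, both being cells that store calprotectin. Of 14 neutrophil markers 6 rose, none fell and 8 were not called, where 8.99% of all tested genes rose and 2.87% fell. Mmp9, a matrix protease, was higher by 3.62 ± 0.40 (SE), Cxcr2, a chemokine receptor, by 5.01 ± 0.57 and Hdc, which makes histamine, by 3.84 ± 0.47. The 14 neutrophil markers summed to 193 to 229 CPM in uninjured cortex and 327 to 537 CPM in injured cortex. The largest single part of this in each of these libraries was Csf3r, which encodes the receptor for granulocyte colony-stimulating factor. It stood at 147, 131 and 117 CPM in uninjured cortex and at 137, 201 and 104 CPM in injured cortex. Csf3r was not called after injury (0.17 ± 0.25, SE, edgeR adjusted p = 0.735). In uninjured cortex Ly6g stood at 0, 0.270 and 0.183 CPM and Cxcr2 at 0.110, 0.360 and 0.305 CPM, while Ngp had 25.7, 51.1 and 59.8 CPM. Which cells held the Csf3r RNA was not tested, so the sum cannot be read as neutrophil RNA alone. All 10 monocyte markers rose, from summed levels of 40.8 to 75.5 CPM to 406 to 2663 CPM, among them the chemokine receptor gene Ccr2 by 4.74 ± 0.55. In culture compared with injured cortex 13 of the 14 neutrophil markers fell (30.1% of all tested genes). The other 1, Mmp8, rose by 3.77 ± 0.34 (20.0% of all tested genes rose). Ngp, a granule protein gene, went from 57.9, 153 and 88.6 CPM in injured cortex to 0.246, 0.0575 and 0.391 CPM in culture, and Mpo had 0 counts in all 3 cultures. Csf3r was among the markers that fell, by 3.77 (SE 0.29), to 13.3, 10.5 and 8.69 CPM in culture. The summed level in culture, 173 to 185 CPM, was mostly Mmp8 at 157, 162 and 174 CPM. Of the monocyte markers 7 fell and 1 rose in the same comparison. The culture values of S100a8 lay within the uninjured range. The part of these cell types in the S100a8 and S100a9 values was not tested.

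**Figure D3:**
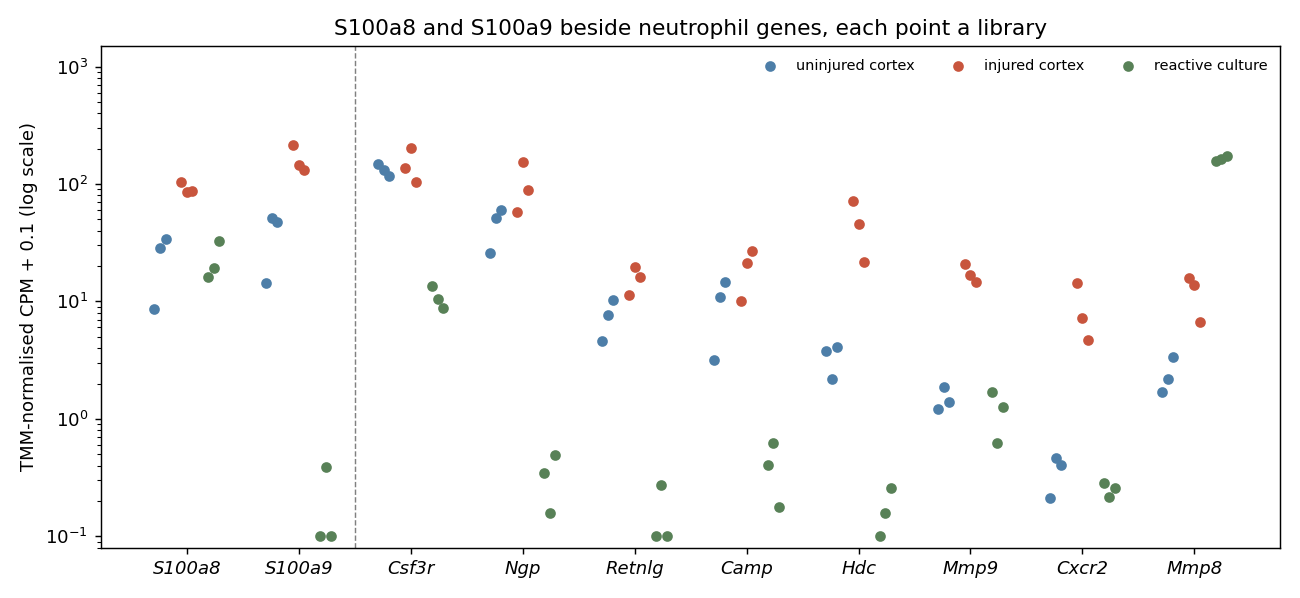
S100a8 and S100a9 (left of the dashed line) and 8 neutrophil markers in TMM-normalised CPM plus 0.1 on a log axis, each point a library. S100a9, Ngp, Retnlg, Camp and Hdc sit below 1 CPM in every culture, while S100a8 keeps 15.9 to 32.6 CPM and Mmp8 is highest there.

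S100a11, S100a10 and S100a6 rose after injury and were higher again in culture, with no overlap between any 2 groups. S100a11 (ENSMUSG00000027907), the annexin A1 partner, stood at 9.94, 13.8 and 10.6 CPM in uninjured cortex, at 307, 130.5 and 87.5 CPM in injured cortex and at 782, 696 and 804 CPM in culture. The injured libraries spread widely, with replicate 1 at 3.51 times replicate 3, yet the lowest lay far above the highest uninjured library. The rise after injury was 3.93 ± 0.43 (SE, edgeR adjusted p = 1.43e-04), or 15.3-fold, and ranked 275 from the highest among the tested genes. Culture exceeded injured cortex by 2.12 ± 0.39 (edgeR adjusted p = 8.78e-04) and uninjured cortex by 6.05 ± 0.47 (adjusted p = 6.90e-07), or 66.4-fold. Without injured replicate 1 the rise after injury was 3.23 (adjusted p = 7.06e-05) and the step from injured cortex to culture 2.80 (adjusted p = 4.26e-05).

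S100a10 (ENSMUSG00000041959), also called p11, stood at 12.7, 20.1 and 17.5 CPM in uninjured cortex, at 139, 80.5 and 59.4 CPM in injured cortex and at 278, 277 and 313 CPM in culture. Injured replicate 1 was again the highest of its group, and the cultures were tightly grouped. S100a10 rose by 2.47 ± 0.31 after injury (SE, edgeR adjusted p = 3.50e-04). In culture it was higher than in injured cortex by 1.64 ± 0.30 (adjusted p = 7.89e-04) and than in uninjured cortex by 4.11 ± 0.33 (adjusted p = 9.19e-07), or 17.3-fold.

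S100a6 (ENSMUSG00000001025), or calcyclin, stood at 21.2, 35.9 and 39.5 CPM in uninjured cortex, at 239, 151 and 145 CPM in injured cortex and at 896, 740.7 and 778 CPM in culture. All 3 groups were apart, with injured replicate 1 above the other injured libraries. The rise after injury was 2.47 ± 0.30 (SE, edgeR adjusted p = 2.93e-04), or 5.53-fold. Culture exceeded injured cortex by 2.17 ± 0.30 (adjusted p = 9.92e-05) and uninjured cortex by 4.64 ± 0.33 (adjusted p = 3.76e-07).

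S100a4 (ENSMUSG00000001020), which encodes a myosin-binding protein often used as a marker of fibroblasts and of some leukocytes, was counted at low depth. It had 0, 3 and 4 counts in uninjured cortex, 54, 7 and 12 in injured cortex and 47, 32 and 39 in culture, or 0 to 0.244 CPM, 0.366 to 2.55 CPM and 1.84 to 3.05 CPM. Each injured library lay above the uninjured libraries, but replicate 1 alone reached the culture range. The difference after injury, 3.08 ± 0.96 (SE), missed the threshold (edgeR adjusted p = 0.0576), while DESeq2 called it (adjusted p = 0.0114), as did edgeR without injured replicate 2 (0.0360) or injured replicate 3 (0.0160). Without injured replicate 1 the difference was 1.57 (edgeR adjusted p = 0.359) and without uninjured replicate 3 it was 3.79 (adjusted p = 0.0873). Culture was higher than uninjured cortex by 4.31 ± 0.96 (edgeR adjusted p = 2.23e-03), and by 5.02 without uninjured replicate 3. Against injured cortex the difference was 1.23 ± 0.77 (adjusted p = 0.1996), and without injured replicate 1 it was called at 2.72 (adjusted p = 0.0151). In GENCODE M21, 302 of the 584 exon bases of S100a4 are shared with Gm42674, a read-through transcript whose 446 exon bases all lie in exons of S100 genes. Gm42674 had 0 counts in all 9 libraries, and what this overlap did to the S100a4 counts was not tested. No other studied gene shares exon bases in that annotation.

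The annexins that bind these proteins moved the same way. Anxa2, the partner of S100a10, stood at 24.3, 25.0 and 34.1 CPM in uninjured cortex, at 345, 251 and 122 CPM in injured cortex and at 1747, 1839 and 1667 CPM in culture. It rose by 3.11 ± 0.37 after injury (SE, edgeR adjusted p = 2.35e-04) and was higher in culture than in injured cortex by 2.87 ± 0.36 (adjusted p = 5.41e-05). The count of Anxa2 per count of S100a10 was 1.24 to 1.95 in uninjured cortex, 2.04 to 3.11 in injured cortex and 5.32 to 6.64 in culture, with no overlap. Anxa1, the partner of S100a11, stood at 7.24, 7.56 and 15.1 CPM, then at 119, 120.1 and 41.0 CPM, then at 2046, 2358 and 2205 CPM. It rose by 3.23 ± 0.44 after injury (adjusted p = 6.56e-04) and by a further 4.56 ± 0.47 in culture (adjusted p = 9.99e-06). There were 0.547 to 1.43 counts of Anxa1 per count of S100a11 in uninjured cortex, 0.386 to 0.921 in injured cortex and 2.62 to 3.39 in culture. After injury the annexin and its S100 partner thus kept overlapping ratios for Anxa1 and S100a11, and in culture the annexins exceeded their earlier ratios in both pairs.

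**Figure D4:**
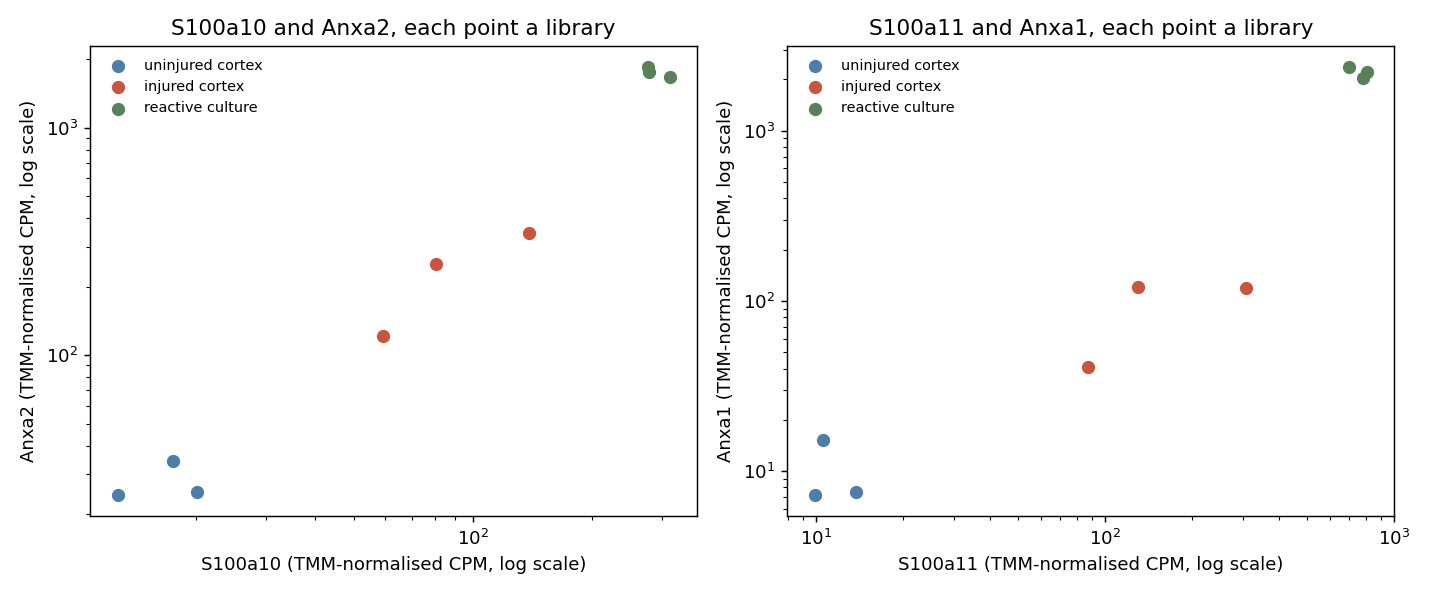
Anxa2 against S100a10 (left) and Anxa1 against S100a11 (right), each in TMM-normalised CPM on log axes, with each point a library. Uninjured libraries sit lower left, injured libraries between and cultures upper right in both panels.

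The partners of S100a6 and S100a4 were called in fewer comparisons than the annexins. Cacybp did not change by the test after injury (0.28 ± 0.26, SE, edgeR adjusted p = 0.543) and was higher in culture than in injured cortex by 0.87 ± 0.26 (adjusted p = 0.0154). Myh9 passed the test only for culture against uninjured cortex (1.61 ± 0.40, adjusted p = 3.97e-03). Culture replicate 1 had 132 CPM of Myh9 and the other cultures 45.9 and 65.1 CPM.

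Other cell type values stood beside the rise of these genes. Fibroblasts are known to express several of these S100 genes, and their markers summed to 79.3 to 152 CPM in uninjured cortex, 68.7 to 87.9 CPM in injured cortex and 695, 324 and 368 CPM in culture. Pdgfrb was the largest part of the sum in uninjured cortex, at 43.6, 69.9 and 107 CPM. Of the 9 tested, 1 rose and 2 fell after injury (8.99% and 2.87% of all tested genes). Dcn rose (0.95 ± 0.25, SE), and Pdgfrb (-1.56 ± 0.36) and Postn (-0.91 ± 0.23) fell. In culture compared with injured cortex 8 rose (20.0% of all tested genes). Among the cultures S100a6 had the same order as the fibroblast sum, with replicate 1 highest and replicate 2 lowest, while S100a10 and S100a11 were highest in replicate 3. Not every fibroblast marker had that order: Col1a1 stood at 159, 12.7 and 25.4 CPM in culture replicates 1 to 3, but Dcn at 46.7, 64.1 and 41.2 CPM. The 10 cell cycle genes all rose after injury, from summed levels of 8.45 to 11.2 CPM to 227 to 366 CPM, and reached 866 to 1053 CPM in culture. In injured cortex the monocyte sum was 2663, 1158 and 406 CPM in replicates 1, 2 and 3, the same order as for S100a6, S100a9, S100a10 and S100a11. The order was not particular to monocytes, as the sum of 6 T cell markers was 265, 126 and 75.7 CPM. S100a8, at 104, 86.2 and 86.7 CPM, was highest in replicate 1 but not lowest in replicate 3. The parts of these cell types and of proliferation in the S100 values were not tested.

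S100b and S100a16 were not called after injury and fell in culture. S100b (ENSMUSG00000033208) stood at 84.3, 68.6 and 55.9 CPM in uninjured cortex, at 103, 75.2 and 127 CPM in injured cortex and at 9.95, 16.6 and 17.6 CPM in culture. The uninjured and injured libraries overlapped, and every culture lay below both. The difference after injury was 0.55 ± 0.27 (SE, edgeR adjusted p = 0.218, 95% interval -0.03 to 1.13). In culture S100b was lower than in injured cortex by 6.91-fold (log2 fold change -2.79 ± 0.29, adjusted p = 1.06e-05) and than in uninjured cortex by 4.73-fold (-2.24 ± 0.28, adjusted p = 3.30e-05).

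S100a16 (ENSMUSG00000074457), a widely expressed family member that is also found in astrocytes, stood at 507, 444 and 428 CPM in uninjured cortex, at 457, 377 and 578 CPM in injured cortex and at 19.6, 31.8 and 23.6 CPM in culture. The first 2 groups overlapped throughout, and the cultures were more than 10-fold below every other library. Injury gave 0.03 ± 0.25 (SE, edgeR adjusted p = 0.951, 95% interval -0.51 to 0.58), a difference whose sign changed with the scaling. The level in culture was 18.8-fold lower than in injured cortex (-4.23 ± 0.29, adjusted p = 3.75e-07) and 18.4-fold lower than in uninjured cortex (-4.20 ± 0.29, adjusted p = 2.48e-07).

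Astrocyte and oligodendrocyte markers fell in culture as well. All 10 astrocyte markers were lower in culture than in injured cortex, among them the water channel gene Aqp4, from 125, 119 and 146 CPM to 0.430, 1.15 and 0.783 CPM (-7.34 ± 0.34, SE, edgeR adjusted p = 6.93e-08). All 10 oligodendrocyte markers also fell, from summed levels of 13495 to 18767 CPM to 420 to 791 CPM. Over all tested genes 30.1% fell in this comparison and 2.87% fell after injury. The 10 astrocyte markers had log2 fold changes of -7.34 to -3.44 with a median of -4.41, beside -4.23 for S100a16 and -2.79 for S100b, and no difference between genes was tested. After injury 1 of 10 astrocyte markers, Gjb6, was lower (-1.18 ± 0.30), and 2 of 10 oligodendrocyte markers, Aspa and Opalin, were lower, while S100b and S100a16 were not called. The part of these cell types in the S100b and S100a16 values was not tested.

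**Figure D5:**
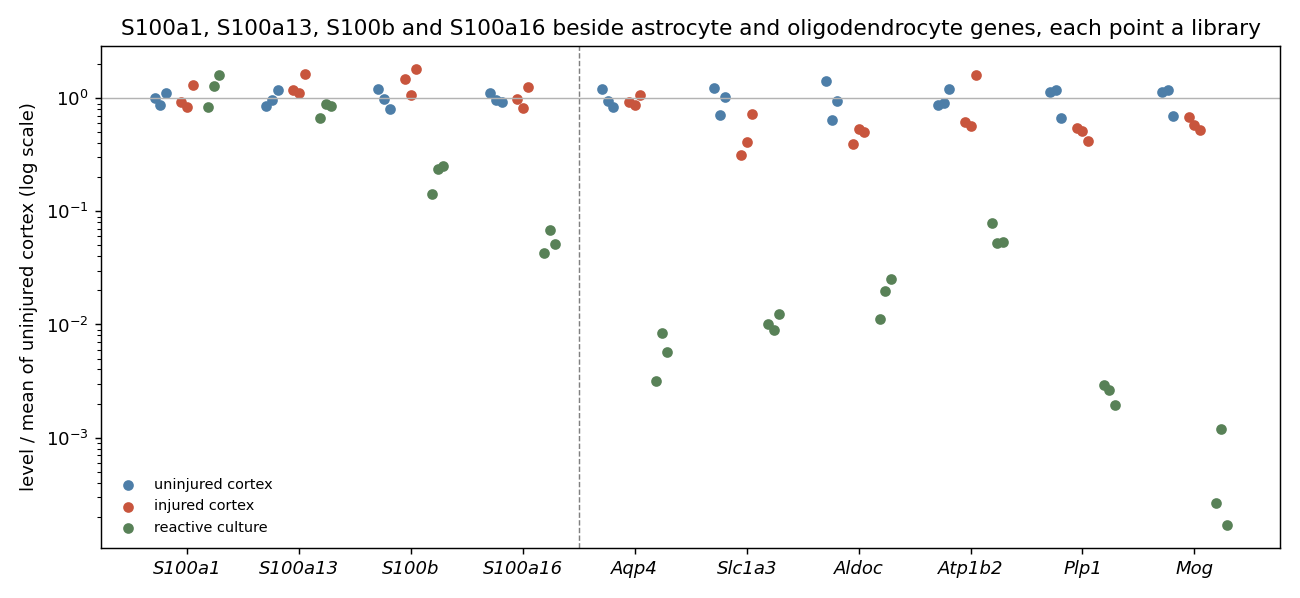
Level of S100a1, S100a13, S100b and S100a16 (left of the dashed line) and of 4 astrocyte and 2 oligodendrocyte genes, each divided by its mean in uninjured cortex, on a log axis, with each point a library. In culture S100a1 and S100a13 stay near the uninjured mean, and S100b and S100a16 lie below it. Atp1b2 overlaps S100a16 there, while the other markers drawn reach lower, with Mog lowest.

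S100a1 was called in no comparison and S100a13 in 1. S100a1 (ENSMUSG00000044080), best known for binding the calcium channels of muscle stores, stood at 263, 227 and 288 CPM in uninjured cortex, at 238, 216 and 337 CPM in injured cortex and at 219.5, 334 and 416 CPM in culture. All 3 groups overlapped. The difference after injury was 0.02 ± 0.27 (SE, edgeR adjusted p = 0.969, 95% interval -0.57 to 0.62), and its sign changed with the scaling. Culture differed from uninjured cortex by 0.32 ± 0.27 (adjusted p = 0.328, 95% interval -0.28 to 0.91), positive under all scalings but the 1 that left out the most abundant genes. With S100b lower and S100a1 not, the count of S100b per 100 counts of S100a1 was 19.4 to 32.1 in uninjured cortex, 34.9 to 43.0 in injured cortex and 4.23 to 4.97 in culture.

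S100a13 (ENSMUSG00000042312) takes part in the release of FGF1, a growth factor that leaves cells without a signal peptide, together with a form of synaptotagmin 1. It stood at 74.7, 84.7 and 103 CPM in uninjured cortex, at 104, 97.0 and 145 CPM in injured cortex and at 59.1, 78.0 and 74.9 CPM in culture. Uninjured cortex overlapped both other groups, whereas the injured and culture libraries did not overlap. The difference after injury was 0.40 ± 0.22 (SE, edgeR adjusted p = 0.287), and culture was lower than injured cortex by 1.63-fold (-0.70 ± 0.22, adjusted p = 0.0200). This call was lost without injured replicate 3 (-0.50, adjusted p = 0.0657), culture replicate 1 (-0.58, adjusted p = 0.0848) or culture replicate 3 (-0.74, adjusted p = 0.0526). Fgf1 stood at 40.4, 45.2 and 44.3 CPM in uninjured cortex, 23.3, 20.6 and 34.0 CPM in injured cortex and 4.79, 5.17 and 3.21 CPM in culture. Fgf1 fell by 2.56 from injured cortex to culture (SE 0.26, adjusted p = 1.06e-05).

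The wider list of S100 partners and receptors held 26 genes, of which 25 were tested. After injury 6 were higher and none lower: Cybb, Anxa2, Anxa1, Anxa6, Ahnak and Ncf1. Over all tested genes 8.99% were higher and 2.87% lower. Cybb, the catalytic subunit of the phagocyte NADPH oxidase to which calprotectin delivers arachidonic acid, went from 6.52, 11.1 and 9.15 CPM to 211, 129.6 and 57.1 CPM (3.89 ± 0.42, SE, edgeR adjusted p = 1.45e-04). In culture compared with injured cortex 12 were higher and 4 lower (20.0% and 30.1% of all tested genes). Compared with uninjured cortex 16 were higher and 3 lower in culture (27.5% and 33.1% of all tested genes). Cd36, a scavenger receptor to which the S100A8 and S100A9 complex binds with its fatty acid, had 10.4, 16.6 and 5.79 CPM in injured cortex and 4097, 3714 and 3232 CPM in culture (8.40 ± 0.48, adjusted p = 1.28e-07). The list's median log2 fold changes were 0.74, 0.72 and 1.00 in the 3 comparisons, beside 0.0012, -0.19 and -0.17 over all tested genes.

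Of the receptors for secreted S100 proteins, Ager, Tlr4 and Cd14 were not called after injury. Ager, which encodes RAGE, stood at 1.33, 1.08 and 2.44 CPM in uninjured cortex and 0.991, 0.890 and 1.74 CPM in injured cortex (-0.40 ± 0.50, SE, edgeR adjusted p = 0.663). Its level in culture was 0.307, 0.230 and 0.235 CPM, from 3 to 5 counts a library, and below that of injured cortex (-2.21 ± 0.58, adjusted p = 8.04e-03). Tlr4 stood at 15.3 to 21.9 CPM, 9.09 to 25.8 CPM and 26.6 to 42.4 CPM and was called in no comparison (adjusted p = 0.935, 0.105 and 0.0714). Cd14, the co-receptor of TLR4, stood at 728, 211 and 180 CPM in uninjured cortex and at 1216, 2216 and 497 CPM in injured cortex. Uninjured replicate 1 lay above injured replicate 3, and the difference of 1.81 ± 0.58 was not called (adjusted p = 0.0630).

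The other S100 genes of the table were scarce. Of 7 on the list, S100a3 and S100a7a had enough counts to be tested, and S100a7l2 and S100z had 0 counts in every library. S100a7a stood at 0.497, 0.450 and 0.976 CPM in uninjured cortex, 0.236, 0.105 and 0.511 CPM in injured cortex and 2.33, 3.74 and 3.29 CPM in culture. It was higher in culture than in injured cortex by 3.37 ± 0.60 (SE, edgeR adjusted p = 6.99e-04), with no overlap. S100a3 was higher in culture than in uninjured cortex by 2.08 ± 0.65 (adjusted p = 0.0153). S100a5, S100a14 and S100g reached at most 3, 8 and 10 counts in a library. S100a2, singled out after its values were seen, had 19, 2 and 6 counts in uninjured cortex, 63, 1 and 89 in injured cortex and 0 in all 3 cultures. S100a11-ps, a pseudogene copy of S100a11, had 0 counts in all 9 libraries.

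Along chromosome 3, studied genes next to each other in order mostly moved alike after injury, but some of them parted in culture compared with injured cortex. From S100a1 to S100a10 the log2 fold changes after injury ran 0.02, 0.40, 0.03, 3.08, 2.47, 1.96, 2.12, 3.93 and 2.47 for the 9 studied genes in chromosome order. The first 3 of these were not called, and of the other 6 all but S100a4 rose. In culture compared with injured cortex the same order gave 0.29, -0.70, -4.23, 1.23, 2.17, -2.04, -10.51, 2.12 and 1.64. S100a8 and S100a9, which fell, thus lie between S100a6 and S100a11, which rose. This order skips other S100 genes. S100a7a, between S100a6 and S100a8, was not called after injury (-1.08 ± 0.61, SE) and rose by 3.37 in culture compared with injured cortex. The order also gives no distances: the window of S100a9 begins at base 90695722 of chromosome 3 and that of S100a11 at base 93520246. Whether position had a part was not tested.

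Across the 9 libraries, the studied genes fell into sets with like profiles on the log2 CPM scale (prior count 2). Pearson's r was 0.997 for S100a10 with S100a11, 0.992 for S100a6 with S100a10 and 0.986 for S100a6 with S100a11. It was 0.971 for S100a16 with S100b, 0.961 for S100a9 with S100a16 and -0.84 for S100a6 with S100a16. S100a9 and S100a16 were both lowest in culture, yet after injury S100a9 rose by 2.12 and S100a16 was not called (0.03). These values describe 9 points that fall into 3 groups and mostly restate the group differences. Among 9093 other genes whose mean level reached 10 CPM, Gm7665, Stap1 and Mcm5 were nearest to S100a11 (r from 0.997 to 0.998), Cybb, Gm7665 and Rpl4 to S100a10 (0.993 to 0.995), and Cln6, Lgals1 and Cenpi to S100a6 (0.994 each). Lgals1, which encodes galectin-1, stood at 12.7 to 19.9 CPM, 142 to 210.3 CPM and 1352 to 1462 CPM in the 3 groups. Nearest to S100a16 were Aqp4, Prkcq and Lrrn1 (0.996 to 0.998), and nearest to S100b were Arid4a, Bex2 and Ubn1 (0.985 to 0.992). S100a9 was nearest to Aif1, Tmem176a and Igkc (0.986 to 0.988), and S100a8 to Lck, Wdfy4 and Tgm1 (0.920 to 0.940). Igkc, an antibody light chain constant gene, had 24.6, 35.9 and 20.1 CPM in uninjured cortex, 86.5, 129 and 53.5 CPM in injured cortex and 0, 0.0575 and 0 CPM in culture. In the cultures, replicate 2 alone had counts of Igkc or of S100a9. Lower likeness was found for S100a4 (B4galt5, Eya3 and Nampt, 0.959 to 0.968), S100a13 (Itpkb, Hk2 and Ermard, 0.932 to 0.961) and S100a1 (Cdkn1c, Chd3 and Zfp444, 0.869 to 0.907).

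Within injured cortex replicate 1 was highest for 6 genes, S100a4, S100a6, S100a8, S100a9, S100a10 and S100a11, and replicate 3 for the other 4, S100a1, S100a13, S100a16 and S100b. The highest library exceeded the lowest by 1.21-fold for S100a8 and by 6.95-fold for S100a4. The astrocyte sum, 2315, 2812 and 4059 CPM in replicates 1 to 3, was also highest in replicate 3, and the neutrophil sum, 375, 537 and 327 CPM, was highest in replicate 2. Single neutrophil markers did not share 1 order. Csf3r (137, 201 and 104 CPM) and Ngp were highest in replicate 2. Hdc (71.9, 45.6 and 21.4 CPM), Cxcr2 and Mmp9 were highest in replicate 1, and Ltf (14.4, 30.1 and 31.8 CPM) in replicate 3. In uninjured cortex replicate 1 was lowest for S100a4, S100a6, S100a8, S100a9, S100a10, S100a11 and S100a13. For S100a8 and S100a9 it lay 4.04-fold and 3.59-fold below the highest library. Replicate 1 was also the uninjured library with the lowest monocyte sum, 40.8 CPM against 64.0 and 75.5 CPM.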

How the data were processed

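RNA sequencing was analysed for 3 uninjured cortex, 3 injured cortex and 3 reactive culture libraries, grouped by their labels. Values are raw counts per gene as deposited by the authors, who aligned reads with HISAT2 to GRCm39 per the submitters' processing notes. The counting tool and its strand setting, and the gene models, are not stated in what was used here. Of 56748 genes, 19741 had 0 counts in every library.

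In R 4.3.3, edgeR 4.0.16 was run with TMM scaling, filterByExpr and a quasi-likelihood F test, with 1 mean per group over all 9 libraries (6 residual degrees of freedom), and p-values were adjusted over 18093 genes by Benjamini-Hochberg. The script was tested on simulated data. Each SE given was not an output of edgeR but the absolute log2 fold change divided by the square root of the F statistic. The 95% intervals were built from these SEs with a t quantile. Precision rests on 3 libraries a group, and p-values measure the spread between these libraries. DESeq2 1.42.0, limma-voom (limma 3.58.1), other scalings and filters, each pair of groups alone, a replicate block and leaving out libraries were alternatives.

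The studied genes and the lists of partners, receptors and cell type markers were chosen with earlier results of these data known. Named were the 10 genes, 7 other S100 genes, of each list up to 4 genes with the smallest adjusted p in a comparison and the partners paired with a studied gene, and per studied gene the 3 genes with the highest r. S100a2, S100a11-ps, Gm42674, Mpo and the markers at 0, the called genes listed by name and the marker genes drawn were named after their values were seen. Promoter windows came from RefSeq GRCm38.p6, another build than the counts, and were searched for 10 patterns, of which 4 (for ETS, SOX, NF-kB and SRF factors, in 19.7%, 36.3%, 45.8% and 67.1% of windows) are not described. Replicate numbers were not used to pair the libraries in the main fit, and protein sequences were not analysed here.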

Additional observations from a re-analysis of the deposited data

How the results depend on the processing

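Of the log2 fold changes of the 10 genes under the alternatives, 532 kept direction and side of the threshold, 7 gained and 4 lost a call, and 26 changed sign, none of these called at first. For S100a1 after injury the log2 fold change was -0.0521 with DESeq2 size factors, -0.052 with the DESeq2 test, -0.10 with upper-quartile factors, -0.11 with the 100 most abundant genes and mitochondrial genes left out of the library size, -0.0101 with at least 1 CPM in 3 libraries, -0.0098 with limma-voom, -0.0094 without uninjured replicates 2 and 3, -0.0042 with the groups alone and -0.002 with the replicate block, and -0.21 to 0.16 with 1 library left out. For S100a16 after injury it was -0.0416 with DESeq2 size factors and the DESeq2 test, -0.086 with upper-quartile factors, -0.0945 without the most abundant genes, -0.12 without uninjured replicates 2 and 3, and -0.16 to 0.18 with 1 library left out. For culture against uninjured cortex S100a1 was -0.10 without the most abundant genes, and S100a8 was 0.0612 with limma-voom, 1.40 without uninjured replicates 2 and 3, which leaves 1 uninjured library assumed to vary like the other groups, and -0.46 to 0.26 with 1 library left out. S100a4 after injury was also called with no filter (adjusted p = 9.22e-04) and in culture against injured cortex with limma-voom (1.78, adjusted p = 0.0454), and S100a13 was called lower in culture than in uninjured cortex without the most abundant genes (-0.73, adjusted p = 0.0312). The cause was not tested for any of these.

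The number of all genes called after injury was 2145, 1369 with the groups alone, 974 to 4102 with 1 library left out and 462 without uninjured replicates 2 and 3, and the last setting also took culture against uninjured cortex from 10954 to 6997. These settings hold fewer libraries. With 1 library left out culture against injured cortex gave 7152 to 9330 and culture against uninjured cortex 9551 to 12147 calls. Of the 10 genes, 4 to 6 were then higher after injury, and 3 to 4 higher and 4 to 5 lower in culture against injured cortex. Without uninjured replicates 2 and 3 the counts were 5 higher and 0 lower, 3 higher and 5 lower, and 5 higher and 3 lower, and S100a6 was higher by 3.06 after injury and by 5.24 in culture against uninjured cortex. The fall of S100a9 from injured cortex to culture was -14.65 to -9.92 with 1 library left out, the first without culture replicate 2, which leaves 0 counts in culture and no bound.

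Scaling without the most abundant genes moved the median gene by -0.16, -0.25 and -0.41 in the 3 comparisons, and upper-quartile factors by -0.13, -0.07 and -0.19. Calls after injury were 75.8% higher in the main scaling, 64.0% with upper-quartile factors and 64.2% without the most abundant genes, which also took the share from 39.9% to 29.5% and from 45.4% to 31.8% for the cultures.

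Deviations from the group means had r of -0.09 to 0.35 between same-numbered libraries of different groups, over 0.1 in 3 of 9 pairs. Between libraries of different number and group r was -0.32 to 0.27. The ranges overlap, with the highest value in a same-numbered pair, and whether the numbers mark a pairing is not known. With the replicate block 2203, 9096 and 11060 genes were called, and the counts of the 10 genes were 5 and 0, 3 and 5, and 4 and 3. Depth limits S100a4, Ager and the S100 genes with few counts.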
